A study of Mus musculus with 267 samples.

Results

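Tmem26 encodes a transmembrane protein that is best known as a surface marker of beige fat cells, and the chromatin around its start was examined in bone marrow-derived macrophages (BMDMs) left untreated or stimulated with IL-4. In mm10 with the GENCODE vM21 annotation the gene (ENSMUSG00000060044.8) lies on the forward strand of chromosome 10, from 68723646 to 68782650. The locus was taken as every region of the tag tables, and every reproducible transcription factor peak, whose centre lay within 50 kb of that start. It held 305 of the 2382324 regions and peaks of the series, made up of 61 of 423610 tag table regions and 244 of 1958714 peaks. Joined across tables where centres lay within 500 bp of each other, the 61 regions fell on 12 positions. The gene was chosen by a measured value, the rise of H3K27ac in NOD macrophages after 24 h of IL-4 at a region in its first intron, so every NOD comparison of 24 h with basal is given here as a description with no test. At the edge of the window, a PWK region at -50000 bp was inside, with 24 h H3K27ac of 20.2 and 12.4 tags, and a SPRET region at -50023 bp was outside, with 7.05 and 5.38 tags.

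Macrophages came from the bone marrow of female mice of 5 inbred strains, PWK/PhJ (PWK), C57BL/6J (C57), SPRET/EiJ (SPRET), NOD/ShiLtJ (NOD) and BALB/cJ (BALB), grown with M-CSF and either left basal or given IL-4 at 20 ng/mL for 24 h. C57 cells were also taken after 1 h and 6 h. A separate set came from Egr2 fl/fl mice, which carry loxP-flanked Egr2 and keep the gene, and from LyzM-Cre Egr2 fl/fl mice, in which Cre driven from the lysozyme M gene deletes Egr2 in myeloid cells. Both of those genotypes carry the floxed allele, and both were studied basal and after 24 h of IL-4. Values are normalised tags, that is, sequenced fragments counted in a region of 1 kb (300 bp for the transcription factor tables) and scaled to 1e7 per library. Each strain had its own table of regions, so strains are set side by side and were not tested against each other. Because the cells were measured in bulk, a rise of signal in every cell and a rise in the share of cells that carry it cannot be told apart.

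IL-4 binds its receptor and activates STAT6, a transcription factor that enters the nucleus within minutes and drives the alternative activation programme of macrophages. STAT6 induces EGR2 and PPARγ, which act on a later set of genes, while PU.1 and C/EBPβ are lineage factors that open macrophage enhancers before any stimulus. Acetylation of histone H3 at lysine 27 (H3K27ac) marks active enhancers and promoters, H3K4me2 marks both in active or poised form, H3K4me3 marks promoters, and RNA polymerase II (Pol II) reports transcription.

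The 155 libraries of the tag tables held between 4691644 and 29050468 tags, with a median of 12936233. Of 7 macrophage genes checked at their starts, among them Csf1r and Cd68, 7 had a region in each strain table but that of SPRET, which had 6, and their mean H3K27ac at 24 h lay between 104 and 933 tags. Neither of 2 T cell genes had a region, B cell genes were at 2.16 tags or less and fibroblast genes at 7.00 or less. Of 5 fat cell genes, 2 or 3 had a region in each strain, and their highest mean was 88.3 tags, in NOD at 24 h. At least 1 of 3 neutrophil precursor genes had a region in every strain, with 24 h means from 1.42 to 176 tags. Replicates 1 and 2 of H3K27ac at 24 h differed across all regions by a median ratio of 1.90 in BALB and 1.06 to 1.29 in the other strains, but at the Tmem26 start they differed by 1.47 to 3.41, and replicate 1 was the higher one there in all 5 strains.

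The sequences that carry the results are 4 regions around the start, shown here from the C57BL/6J reference (RefSeq, GRCm38.p6, forward strand), with matches to searched motifs in capitals. The intron 1 region, about 2 kb past the start, is chr10:68725538-68725837, between exon 1 (68723746 to 68724090) and exon 2 (from 68740919) of the transcript Tmem26-201. The region 0.46 kb before the start is chr10:68723040-68723339, and the regions at -18.0 kb and -39.6 kb are chr10:68705513-68705812 and chr10:68683951-68684250. The alleles of the other strains were not used here.
Intron 1 region: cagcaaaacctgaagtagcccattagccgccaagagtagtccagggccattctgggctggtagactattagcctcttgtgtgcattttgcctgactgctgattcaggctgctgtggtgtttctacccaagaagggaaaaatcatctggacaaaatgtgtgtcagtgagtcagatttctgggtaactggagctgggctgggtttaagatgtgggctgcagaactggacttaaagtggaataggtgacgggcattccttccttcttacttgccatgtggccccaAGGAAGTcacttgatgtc
Region -0.46 kb: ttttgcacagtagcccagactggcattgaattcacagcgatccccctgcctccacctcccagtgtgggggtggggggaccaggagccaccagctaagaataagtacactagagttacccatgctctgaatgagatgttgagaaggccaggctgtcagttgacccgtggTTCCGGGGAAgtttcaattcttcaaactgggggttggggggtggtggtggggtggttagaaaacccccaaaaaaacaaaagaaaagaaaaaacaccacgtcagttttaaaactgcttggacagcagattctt
Region -18.0 kb: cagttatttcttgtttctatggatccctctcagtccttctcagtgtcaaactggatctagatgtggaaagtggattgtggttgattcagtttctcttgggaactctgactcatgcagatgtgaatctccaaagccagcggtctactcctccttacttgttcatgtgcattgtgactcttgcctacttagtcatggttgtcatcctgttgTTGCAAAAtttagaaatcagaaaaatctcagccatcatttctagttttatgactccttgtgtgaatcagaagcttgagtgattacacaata
Region -39.6 kb: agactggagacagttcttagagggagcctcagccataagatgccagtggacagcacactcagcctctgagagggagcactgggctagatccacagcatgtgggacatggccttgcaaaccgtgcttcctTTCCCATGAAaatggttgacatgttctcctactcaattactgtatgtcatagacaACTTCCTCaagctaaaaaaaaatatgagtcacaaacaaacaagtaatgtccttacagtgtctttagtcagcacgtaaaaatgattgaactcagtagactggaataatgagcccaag

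The capitals mark the short PU.1 motif (AGGAAGT) in the intron 1 region, a STAT motif (TTCNNNNGAA) at -0.46 kb, a C/EBP motif (TTGCNNAA) at -18.0 kb, and at -39.6 kb a STAT motif with a full PU.1 motif (GAGGAAGT, which holds the short form) on the reverse strand. Both strands were searched. Among 67730 C57 regions of the same 300 bp, 22.1% held the short PU.1 motif, 9.53% the full one, 7.19% the STAT motif and 15.8% the C/EBP motif. The EGR motif GTGGGCG, present in 5.45% of those regions, and the PPAR motif AGGTCA, present in 19.5%, had no match in these 4 windows. A match is a description of the letters in the window, and its absence says only that these letters are not there.

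In NOD macrophages H3K27ac at the intron 1 region (+2.0 kb, chr10:68725162-68726162) was all but absent in basal cells and high after IL-4. It was 0.83 and 0 tags in the 2 basal libraries, which together amount to 1 read, and 89.0 and 63.0 tags in the 2 libraries at 24 h, a mean of 76.0 ± 18.3 (SD, n = 2). The ratio of pooled reads was 183, with a 95% counting interval of 32.6 to 7270 that covers counting error only. This was the value behind the choice of the gene. On the log2(tags + 1) scale its rise of 5.81 ranked 1 of the 68932 NOD regions, whereas in plain tags the 2 overlapping regions at the start rose by more. Pol II in the same region was at 1.30 and 2.74 tags in basal NOD cells and 175 and 136 at 24 h, a pooled ratio of 78.6 (interval 35.9 to 215). At the start itself (+0.13 kb, over exon 1) NOD H3K27ac was 13.3 and 5.56 tags basal and 227 and 92.3 at 24 h. By a fold rule that takes its thresholds from the study but reads each mark alone, where the study asked for both marks, that is, a mean changed 2.5-fold or more with at least 16 H3K27ac or 8 Pol II tags in either group, 6 of 10 NOD regions of the locus were higher in H3K27ac, against 3.45% of all NOD regions, and 8 of 10 in Pol II, against 2.76%, and none was lower. Since this contrast chose the gene, these shares are a description and nothing is read from them.

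The intron 1 region was also low in basal cells and high at 24 h in the 3 other strains that have it. In C57, H3K27ac there was 0.68 and 3.57 tags basal and 104 and 47.3 at 24 h. PWK libraries held 1.72 and 0.78 tags basal and 162 and 84.0 at 24 h. SPRET libraries were less far apart, with 6.84 and 1.98 tags basal and 84.6 and 22.6 at 24 h. In each of the 3 strains both 24 h libraries lay above both basal libraries. The share of all regions that separate in this way was not counted, so non-overlap is a description here and below. With limma over all regions of a strain's table, the log2 rise was 5.74 ± 0.62 (SE) in PWK (adjusted p = 0.00147), 3.22 ± 0.63 in SPRET (adjusted p = 0.0172) and 4.68 ± 0.70 in C57, which did not pass (adjusted p = 0.108). The call in PWK was lost without either 24 h library (adjusted p = 0.556 and 0.936), and the call in SPRET was lost without any 1 of its 4 libraries (adjusted p from 0.0835 to 0.367) and under median-ratio scaling (adjusted p = 0.0584). In C57 no region of the whole table passed limma's test, but the intron 1 region passed with edgeR (adjusted p = 0.0352) and DESeq2 (adjusted p = 2.27e-07).

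BALB had no tag table region in intron 1 at this place. Its nearest region was the one 0.46 kb before the start, where H3K27ac was 4.41 and 0.60 tags basal and 85.8 and 30.0 at 24 h. That rise, 4.14 ± 0.56 on the log2 scale, passed limma's test (adjusted p = 3.74e-10) and held without any 1 library. The same place in PWK held 8.58 and 16.4 tags basal and 150 and 121 at 24 h, a log2 rise of 3.39 ± 0.51 (adjusted p = 0.00641), lost without either 24 h library (adjusted p = 0.556 and 0.936). NOD libraries there were at 2.49 and 3.97 basal and 89.0 and 50.7 at 24 h.

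The highest group mean of H3K27ac over the locus, 322 tags in PWK at 24 h, lay at the start of the gene, over exon 1. PWK libraries rose from 37.8 and 39.2 tags to 384 and 261, a log2 change of 3.01 ± 0.46 (limma adjusted p = 0.00674). SPRET libraries went from 16.2 and 30.95 tags to 248 and 131, a log2 change of 2.95 ± 0.42 (adjusted p = 0.00198). C57 libraries held 6.78 and 2.85 tags basal and 323 and 94.5 at 24 h, with a log2 difference of 5.00 ± 0.70 that missed the threshold (adjusted p = 0.106). In all 3 strains the 2 conditions did not overlap. Basal H3K27ac at the start was thus between 2.85 and 39.2 tags over the strains with a region there, with PWK at the top and C57 at the bottom, a difference that was not tested because the tables were made separately. The PWK call was lost without either 24 h library (adjusted p = 0.556 and 0.936) and the SPRET call without 24 h replicate 1 (adjusted p = 0.364), 24 h replicate 2 (0.177) or basal replicate 1 (0.116).

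The region at -18.0 kb, before the start, already carried H3K27ac in basal cells of every strain. Basal BALB libraries held 38.2 and 10.7 tags, C57 libraries 27.1 and 12.8, NOD 63.2 and 27.8, PWK 101 and 62.6, and SPRET 71.8 and 75.7. At 24 h they held 148 and 53.8, 138 and 129, 179 and 115, 378 and 177, and 229 and 153 tags in the same order of strains. Conditions did not overlap in any strain, again with no count over all regions to set beside it. The BALB rise of 2.08 ± 0.62 (log2) passed limma's test (adjusted p = 0.0385), but not with a pseudocount of 5 (adjusted p = 0.0527) or without 24 h replicate 1 (0.196), basal replicate 1 (0.129) or basal replicate 2 (0.982). The differences of 1.69 in PWK (adjusted p = 0.192) and 1.33 in SPRET (adjusted p = 0.0854) did not pass.

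The other positions were lower. At -39.6 kb the 4 strains with a region held 14.8 to 77.4 tags of H3K27ac at 24 h and 3.67 to 20.6 basal. Deeper in intron 1, at +8.8 kb, 24 h libraries of the 5 strains held 8.57 to 44.1 tags. At +12.2 kb H3K27ac was present before stimulation, with 2.38 to 48.1 tags basal and 12.9 to 73.2 at 24 h, and in every strain but SPRET the conditions overlapped. In intron 4, at +35.7 kb, no library exceeded 15.2 tags. None of these passed limma's test in any strain at 24 h.

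Counted over the locus, 2 of 6 BALB regions were called higher in H3K27ac by limma, against 1.60% of all regions of that table, 3 of 10 in PWK against 0.487%, 2 of 5 in SPRET against 0.994%, and 0 of 8 in C57 against 0%. In C57 edgeR called 3 of the 8, DESeq2 5 and limma blocked by replicate number 6, and 6 had a limma p under 0.05 before adjustment. The blocked fit called 4 of 6 regions in BALB, 8 of 10 in PWK and 3 of 5 in SPRET. The fold rule, which uses no replicate spread, put 3 of 6 BALB regions higher (3.06% of all regions), 5 of 8 in C57 (3.67%), 7 of 10 in PWK (3.32%) and 3 of 5 in SPRET (2.90%). No region of the locus was lower by either rule. The median log2 difference over the locus was 1.56, 2.17, 1.54 and 1.33 in BALB, C57, PWK and SPRET, beside -0.30, -0.28, -0.18 and -0.09 over all regions of those tables.

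**Figure D1:**
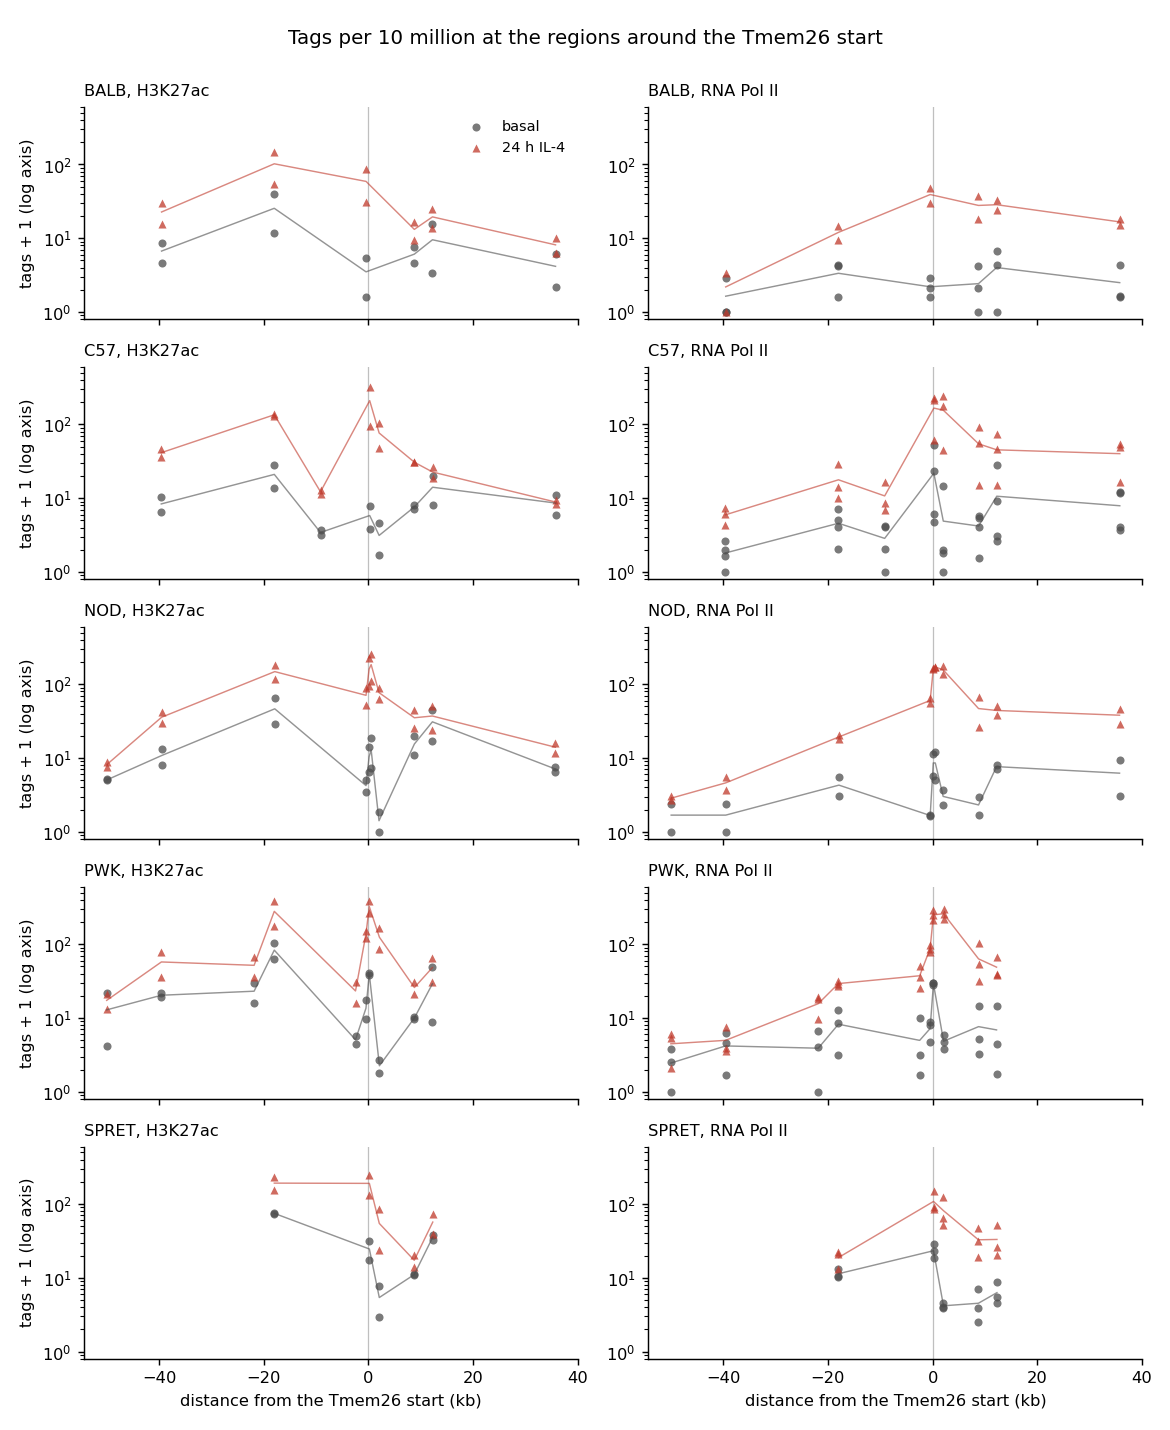
H3K27ac (left) and RNA Pol II (right) at the regions around the Tmem26 start in 5 strains. The x axis is the distance from the start in kb, the y axis is normalised tags plus 1 on a log axis, each point is a library (grey circles basal, red triangles 24 h of IL-4), and lines join the group means. Mean basal Pol II falls to a few tags at +2.0 kb in C57, NOD, PWK and SPRET, while the 24 h libraries there lie between 43.6 and 303 tags, and the H3K27ac points of the conditions overlap at +12.2 kb in BALB, C57, NOD and PWK.

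Pol II at the intron 1 region was also lower in basal cells than at 24 h. C57 libraries held 13.7, 0.80, 0 and 1.01 tags basal and 245, 175 and 43.6 at 24 h. In PWK the 3 basal libraries held 2.82, 4.90 and 3.79 tags and the 3 libraries at 24 h 303, 218 and 251. SPRET libraries held 2.90, 3.05 and 3.59 tags basal and 125, 64.3 and 51.7 at 24 h. The conditions did not overlap in any of these strains, and the log2 rises passed limma's test at 5.53 ± 0.77 in C57 (adjusted p = 0.00791), 5.75 ± 0.31 in PWK (adjusted p = 1.20e-06) and 4.18 ± 0.37 in SPRET (adjusted p = 0.00173). Ordered by the rise of the mean on the log2(tags + 1) scale, the region was 1 of 67742 in C57, 2 of 60175 in PWK and 16 of 54755 in SPRET. The C57 call was lost without 24 h replicate 1 (adjusted p = 0.105), 24 h replicate 2 (0.120) or basal replicate 4 (0.0524), whereas the PWK and SPRET calls held without any 1 library.

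Pol II at the start was higher than in the intron in basal cells, with 3.75 to 51.8 tags in C57, 26.6 to 28.9 in PWK and 17.4 to 27.4 in SPRET. At 24 h the C57 start held 211, 224 and 60.3 tags, that of PWK 247, 210 and 288, and that of SPRET 147, 84.8 and 90.5. The log2 rises were 3.09 ± 0.25 in PWK (limma adjusted p = 4.08e-05) and 2.2 ± 0.28 in SPRET (adjusted p = 0.00685). The SPRET call was lost without 24 h replicate 1 (adjusted p = 0.0606). In C57 the difference of 3.38 ± 0.69 missed the threshold (adjusted p = 0.0506) and passed with the replicate number as a block (2.99, adjusted p = 0.00213). BALB libraries held 1.92, 0.59 and 1.09 tags basal at -0.46 kb and 46.9 and 29.4 at 24 h, a log2 rise of 4.16 ± 0.71 (adjusted p = 7.41e-06) that was lost with the block (adjusted p = 0.0818) and without basal replicate 3 (adjusted p = 0.726).

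Farther into the gene Pol II also rose. At +8.8 kb the log2 rise was 3.67 ± 0.73 in BALB (limma adjusted p = 0.000361), 3.52 ± 0.63 in C57 (adjusted p = 0.0281), 3.17 ± 0.54 in PWK (adjusted p = 0.00906) and 2.90 ± 0.48 in SPRET (adjusted p = 0.0178). C57 libraries there held 4.37, 4.81, 0.54 and 3.04 tags basal and 90.7, 55.5 and 14.1 at 24 h, without overlap. At +12.2 kb the rise passed in BALB (3.20 ± 0.69, adjusted p = 0.00222), PWK (3.28 ± 0.60, adjusted p = 0.0131) and SPRET (2.33 ± 0.43, adjusted p = 0.0312). In intron 4, at +35.7 kb, BALB rose by 2.89 ± 0.75 (adjusted p = 0.0222). The 3 BALB calls in the gene body were lost with the block (adjusted p = 0.111 to 0.156), under median-ratio scaling (0.118 to 0.313) and without 24 h replicate 1 (0.132 to 0.317) or basal replicate 3 (0.726 to 0.856), that at +12.2 kb also without basal replicate 2 (0.211) and that at +35.7 kb without any 1 library. At +8.8 kb the call was lost in C57 without 24 h replicate 1 or 2 or basal replicate 2, 3 or 4 (0.0503 to 0.249), in PWK without 24 h replicate 2 or basal replicate 2 or 3 (0.0930 to 0.133), and in SPRET without any 1 library other than basal replicate 3 (0.0557 to 0.126). At +12.2 kb it was lost in PWK without replicate 2 or 3 of either condition (0.0682 to 0.151) and in SPRET without any 1 library other than 24 h replicate 3 (0.0669 to 0.153). Over the locus, limma called Pol II higher at 4 of 6 regions in BALB against 0.663% of all regions, 2 of 8 in C57 against 0.223%, 6 of 10 in PWK against 1.44% and 4 of 5 in SPRET against 0.782%. Blocked by replicate number, the fit called 4 of 8 in C57, 8 of 10 in PWK and 4 of 5 in SPRET, whose numbers were taken to pair the libraries, and 0 of 6 in BALB. By the fold rule the counts were 5 of 6 (6.77%), 7 of 8 (1.82%), 8 of 10 (3.06%) and 4 of 5 (1.82%), and no region was lower.

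Both methylation marks were lower at the intron 1 region than at the start in basal cells of the strains with both regions. At the intron 1 region H3K4me2 went from 4.08 and 2.11 tags to 39.5 and 23.4 in C57 and from 10.0 and 12.19 to 47.2 and 34.3 in NOD. PWK libraries went from 17.2 and 14.5 to 75.5 and 75.2, and SPRET libraries from 8.89 and 18.5 to 44.3 and 36.7. At the start H3K4me2 was already high in basal cells, at 73.5 and 94.3 tags in C57, 44.5 and 69.7 in NOD, 74.5 and 147 in PWK, with SPRET at 70.3 and 144, and at 24 h it lay between 46.5 and 73.6 tags over these strains. In limma the intron 1 rise passed in C57 (2.98 ± 0.54, adjusted p = 8.55e-05) and PWK (2.18 ± 0.40, adjusted p = 0.000105) and not in SPRET (1.57 ± 0.40, adjusted p = 0.0801), while the start differed by -0.57, -0.53 and -0.70 (adjusted p = 0.301, 0.946 and 0.125). Over all regions the median H3K4me2 difference was -0.69 in C57, -0.18 in PWK and -0.48 in SPRET. The C57 sign at the start turned under other scalings, to 0.11 with median ratios, 0.09 with edgeR and 0.10 with DESeq2. The intron 1 calls were lost in C57 without 24 h replicate 2 (adjusted p = 0.108) or basal replicate 2 (0.0730), and in PWK without 24 h replicate 1 (0.311) or 2 (0.423). Across the locus 1 of 8 C57 regions (0.179% of all), 1 of 10 in PWK (0.311%), 0 of 6 in BALB (0.0111%) and 0 of 5 in SPRET (0%) were called higher by limma. None was called lower, although in C57 the region at +35.7 kb held 40.8 and 30.97 tags basal and 16.3 and 8.05 at 24 h, without overlap (-1.55, adjusted p = 0.102). Before adjustment p was under 0.05 at 0 BALB and 2 SPRET regions, with 1 BALB region called by edgeR, 0 by DESeq2 and 0 SPRET regions by either tool.

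H3K4me3, the promoter mark, was highest at the start, with 44.9 to 227 tags in basal cells and 182 to 366 at 24 h over C57, NOD, PWK and SPRET. In the intron it was far lower in basal cells. C57 held 2.18 and 1.46 tags there basal and 61.1 and 31.2 at 24 h. PWK held 6.87 and 4.17 basal and 58.0 and 62.9 at 24 h, SPRET 1.70 and 2.12 basal and 57.4 and 27.1 at 24 h, and NOD 4.99 and 2.81 basal and 38.9 and 46.8 at 24 h. Conditions did not overlap in any of the 4 strains. With limma the PWK rise of 3.27 ± 0.47 passed (adjusted p = 0.0132), although not under median-ratio scaling (adjusted p = 0.147) or without 24 h replicate 1 (0.791) or 2 (0.521), and the differences of 4.00 ± 0.50 in C57 (adjusted p = 0.185) and 3.80 ± 0.51 in SPRET (adjusted p = 0.751) did not. Both of the latter passed with edgeR (adjusted p = 0.00185 and 1.08e-10) and DESeq2 (adjusted p = 2.50e-05 and 0.00169). limma called 1 of 10 PWK regions (0.0316% of all), 0 of 6 in BALB (0%), 0 of 8 in C57 (0%) and 0 of 5 in SPRET (0%). Unadjusted p was under 0.05 at 2, 4 and 2 of the BALB, C57 and SPRET regions, of which edgeR called 0, 2 and 2 and DESeq2 0, 2 and 1.

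In the C57 time course H3K27ac at the intron 1 region was called higher at each time, with its highest mean at 6 h. The basal and 24 h libraries are the same ones as in the C57 comparison above, counted over a separate set of regions. H3K27ac at the intron 1 region was 0.68 and 3.57 tags basal, 48.7 and 7.57 at 1 h, 126 and 129 at 6 h, and 106 and 47.3 at 24 h. At the start it was 6.78 and 2.85 basal, 157 and 21 at 1 h, 225 and 382 at 6 h, and 307 and 84.7 at 24 h. The 2 libraries at 1 h stood far apart at both of these regions, replicate 1 being the higher, yet both lay above the basal libraries. In limma over the 4 times the intron 1 region had log2 rises of 2.90 ± 0.74 at 1 h (adjusted p = 0.0263), 5.54 at 6 h (adjusted p = 0.000593) and 4.70 at 24 h (adjusted p = 0.00314). The start rose by 3.43 (adjusted p = 0.0190), 5.75 (0.000633) and 4.89 (0.00367), and the region at -0.46 kb by 3.25 (0.0153), 5.67 (0.000318) and 5.23 (0.00107). The 1 h call in intron 1 was lost without basal replicate 1 (adjusted p = 0.117) or 1 h replicate 1 (0.120), with a pseudocount of 5 (0.0518) and in a fit of the 2 times alone (0.0581), and the 24 h call was lost in such a fit (0.0901). The 1 h calls at the start and at -0.46 kb were lost without basal replicate 2 (0.134 and 0.111), that at the start also without 1 h replicate 1 (0.0658), and both 24 h calls in the fit of 2 times (0.0859 and 0.0843).

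The region at -18.0 kb passed at 6 h only, with 27.1 and 13.6 tags basal, 143 and 24.1 at 1 h, 166 and 177 at 6 h and 138 and 130 at 24 h (log2 3.09, limma adjusted p = 0.0145 at 6 h, beside 0.127 at 1 h and 0.0518 at 24 h). At +12.2 kb H3K27ac was 19 and 7.13 basal, 51.0 and 9.98 at 1 h, 55.5 and 57.8 at 6 h and 23.8 and 17.7 at 24 h, and no time passed. The 6 h call at -18.0 kb was lost without basal replicate 2 (0.132), 6 h replicate 1 (0.169) or 6 h replicate 2 (0.152). Whether one time differed from another was not tested. Over the locus limma called 4, 6 and 3 of 10 regions higher in H3K27ac at 1, 6 and 24 h, against 1.37%, 2.67% and 1.13% of all 77955 regions. The median log2 difference was 1.66, 2.54 and 2.27 over the locus and -0.63, -0.14 and -0.22 over all regions.

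**Figure D2:**
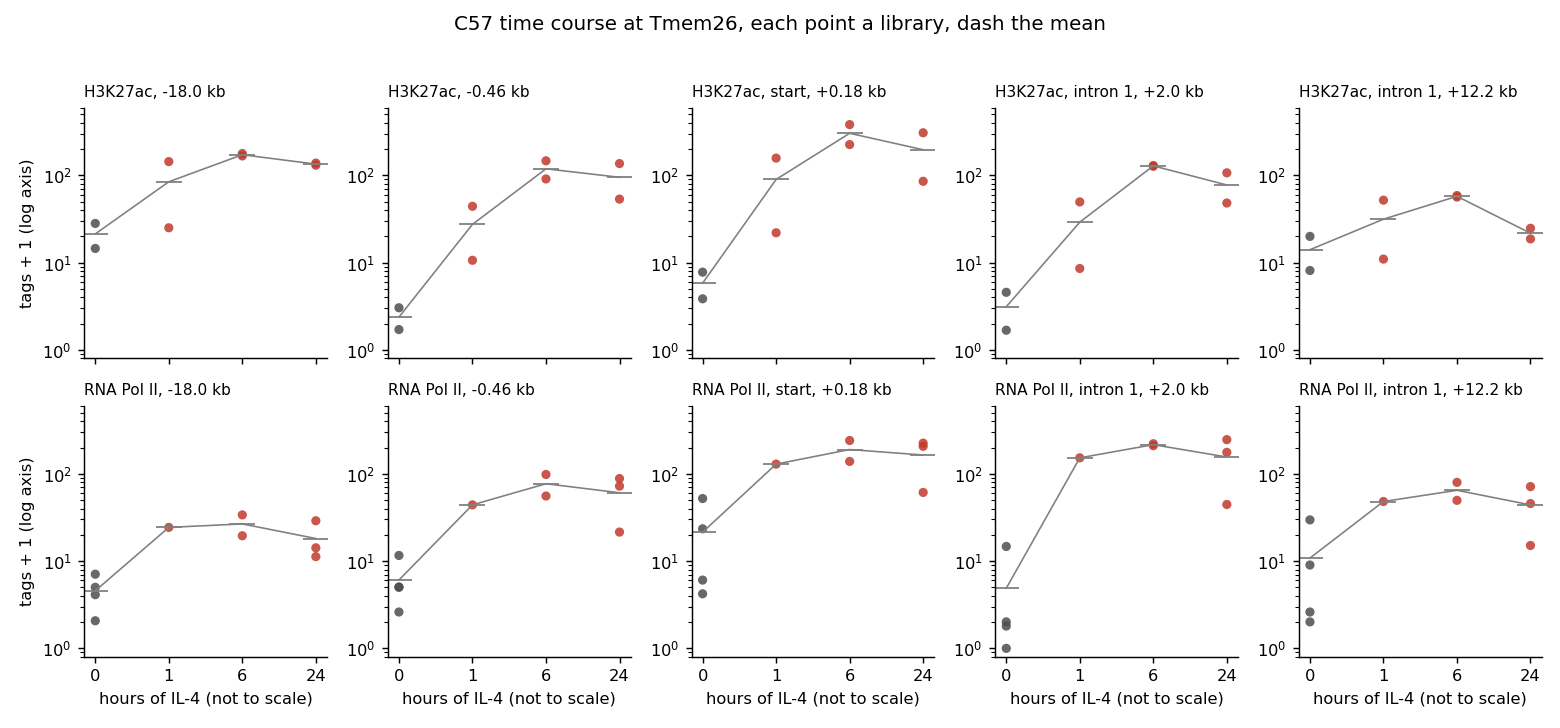
H3K27ac (top) and RNA Pol II (bottom) over the C57 time course at 5 positions around the Tmem26 start. The x axis gives hours of IL-4 in equal steps, the y axis normalised tags plus 1 on a log axis, each point is a library and dashes joined by a line are the group means. At +2.0 kb the single Pol II library at 1 h holds 152 tags against 0 to 13.7 in the 4 basal libraries, and at +12.2 kb the H3K27ac mean at 24 h lies between the basal and 6 h means.

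Pol II rose over the same times. At the intron 1 region the single library at 1 h held 152 tags, the 2 at 6 h held 210 and 221 and the 3 at 24 h held 246, 176 and 43.6, against 13.7, 0.80, 0 and 1.01 in basal cells. At the start it was 128 at 1 h, 138 and 240 at 6 h and 206, 224 and 60.3 at 24 h, against 51.2, 22.5, 3.22 and 5.06 basal. limma gave log2 rises in intron 1 of 5.82 ± 1.04 at 1 h (adjusted p = 0.0480), 6.32 ± 0.80 at 6 h (0.00162) and 5.53 ± 0.71 at 24 h (0.00104). The 1 h value rests on 1 library, whose spread is assumed to be that of the other times, and its call was lost under 4 alternatives (adjusted p = 0.0503 to 0.343) and without basal replicate 2, 3 or 4 (0.0977, 0.0940 and 0.121). The 6 h call was lost without 6 h replicate 1 (0.114) or 2 (0.0690). Over the locus 1, 7 and 5 of 10 regions were called higher at 1, 6 and 24 h, against 0.0462%, 0.428% and 0.503% of all regions. Those at 6 h included -18.0 kb (log2 2.62, adjusted p = 0.0463), -9.16 kb (2.87, 0.0463) and, in intron 4, +35.7 kb (2.88, 0.0360), and each of the 7 was lost without either 6 h library.

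Reproducible factor peaks at the intron 1 region were absent from all 25 basal lists and present in 16 of the 25 lists at 24 h, 1 list being held per factor, strain and condition. STAT6 had a peak there in all 5 strains at 24 h, and in C57 also at 1 h and 6 h. Each list was ordered by score and, among equal scores, by the count it gives for a peak. In the lists with an IDR score 40.3% to 73.5% of peaks were tied at the highest value, as were the 5 STAT6 peaks here, so that their order follows the count. From the top of its own list the STAT6 peak stood at 1.52% in PWK, 4.68% in C57, 6.05% in NOD, 12.1% in SPRET and 36.7% in BALB. PPARγ, whose lists hold another kind of score, also had a peak in all 5 strains at 24 h, at 14.8% in C57, 16.7% in NOD, 19.2% in PWK, 26.8% in BALB and 31.1% in SPRET. With peak centres kept to within 150 bp of the region's centre, PPARγ had a peak in 2 of the 5 strains and STAT6 in all 5. PU.1 had one in 4 strains and not in SPRET, between 35.1% and 51.0%. EGR2 had one in BALB (92.7%) and C57 (91.8% at 24 h and 87.8% at 6 h), whose lists differ in their kind of score, near the foot of both lists, and C/EBPβ had none in any list. In C57, 45.2% of all tag table regions held a STAT6 peak at 24 h, 38.1% a PPARγ peak, 65.2% a PU.1 peak and 37% an EGR2 peak, so a peak as such is common, and in basal C57 cells 37.9% of regions held a STAT6 peak and 62.6% a PU.1 peak.

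The other positions held different sets of factors. At -0.46 kb, where the STAT motif is printed above, STAT6 had a peak in all 5 strains at 24 h, from 5.51% in PWK to 56.7% in BALB, and 13 of 25 lists at 24 h held a peak against 0 basal. Over the start C/EBPβ had a peak in all 5 strains at 24 h and in PWK alone in basal cells, and STAT6 had one at 24 h in PWK and SPRET. EGR2 had a peak over the start at 24 h in BALB, PWK and SPRET, in NOD in basal cells and not at 24 h, and in C57 at 1 h alone. At -18.0 kb, where the C/EBP motif is printed above, C/EBPβ had a peak in all 5 strains under both conditions, within the top 1.99% to 5.07% of each list at 24 h. STAT6 went there from 2 strains to 5, PPARγ from 3 to 5 and PU.1 from 0 to 3, and the position held a peak in 13 of 25 basal lists and 21 of 25 at 24 h. At -39.6 kb, where a STAT and a PU.1 motif are printed, 0 basal lists and 9 lists at 24 h held a peak, 4 of them PU.1 and 3 STAT6. Positions +8.8 kb and +35.7 kb were PU.1 positions in basal cells, with peaks in all 5 strains at each. At +12.2 kb C/EBPβ had a peak in all 5 strains under both conditions. Peaks also lay where the searched motif was missing. There was no STAT match in the intron 1 region, no PU.1 match at +8.8 kb and no C/EBP match at +12.2 kb. A window over the start in the C57 time course held a STAT match, with a STAT6 peak at 24 h in PWK and SPRET alone.

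**Figure D3:**
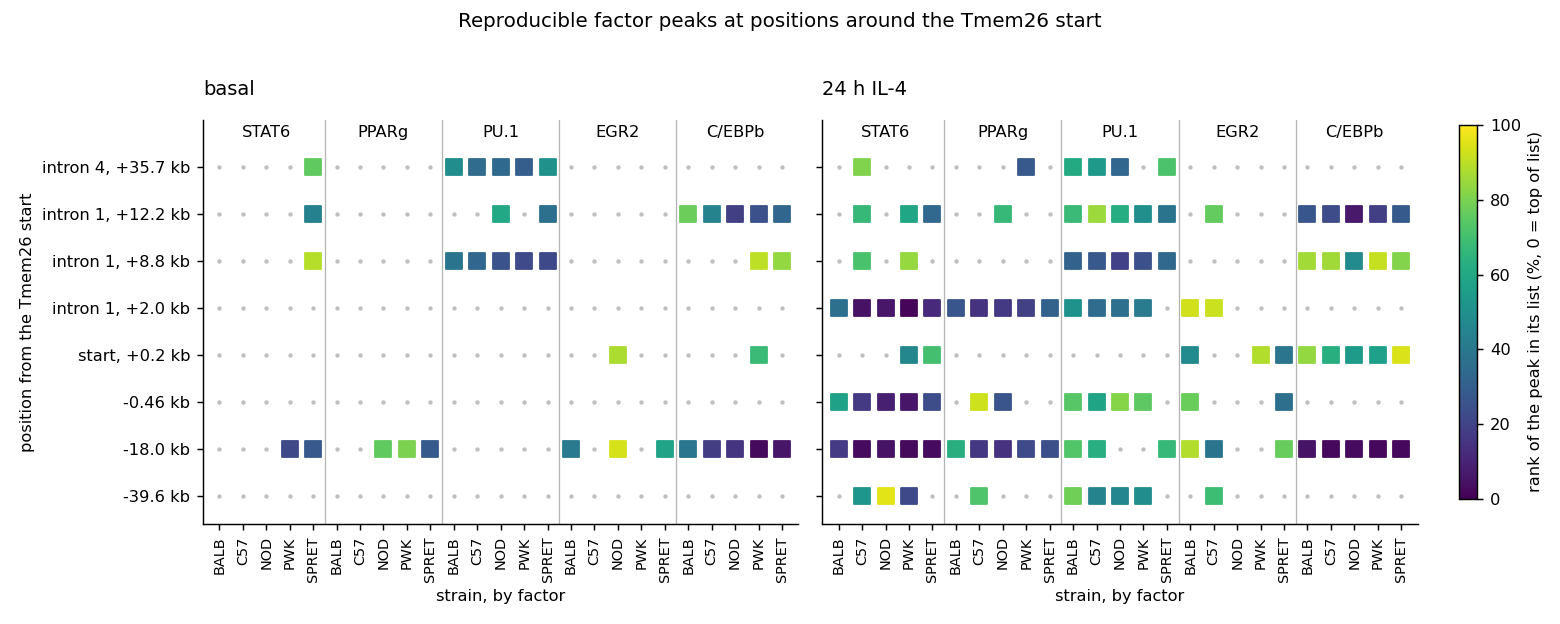
Reproducible peaks of 5 factors at 8 positions around the Tmem26 start in basal macrophages (left) and after 24 h of IL-4 (right). Columns are strains grouped by factor, rows are positions, a square marks a peak coloured by its rank in its own list in percent (0 is the top of the list) and a dot marks no peak. The rows at +2.0 kb, -0.46 kb and -39.6 kb are empty in basal cells and hold a peak in 16, 13 and 9 of the 25 lists at 24 h.

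Summed over the 50 kb on each side, PU.1 peaks numbered 3, 3, 6, 4 and 10 in basal BALB, C57, NOD, PWK and SPRET cells and 12, 12, 11, 11 and 7 at 24 h, so that SPRET alone had fewer at 24 h. The PU.1 list shortened in SPRET from 101317 to 80580 peaks, in BALB from 90248 to 82863 and in PWK from 86707 to 73028. It lengthened in C57 and NOD. STAT6 peaks numbered 0, 0, 0, 1 and 4 basal and 3, 7, 4, 9 and 6 at 24 h. PPARγ peaks numbered 1, 0, 1, 2 and 5 basal and 4, 6, 10, 8 and 4 at 24 h, and C/EBPβ peaks 2, 2, 3, 6 and 4 basal and 6, 6, 7, 8 and 6 at 24 h. EGR2 peaks went from 3, 0, 3, 0 and 1 to 6, 6, 1, 3 and 3. The whole lists also changed in length, so these counts alone cannot show a gain particular to the locus. In the same strain order PPARγ lists held 6524, 7627, 12529, 18402 and 19684 peaks basal. At 24 h they held 23578, 39088, 40426, 46415 and 18487. EGR2 lists went from 28842, 8437, 25341, 6201 and 12301 peaks to 37104, 29407, 16604, 14919 and 39458. C/EBPβ lists lengthened in every strain but SPRET, and STAT6 lists in every strain but NOD. Each list is 1 call over replicates, so the peak counts of the locus have no replicate spread and no test.

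EGR2 tags over the C57 time course were measured at 6 regions of the locus. At the intron 1 region they were 2.34 and 2.69 basal, 6.32 and 32.8 at 1 h, 22.7 and 61.1 at 6 h, and 22.4 and 50.9 at 24 h. Every stimulated library there lay above both basal ones, and replicate 2 was the higher at each time after IL-4. At -17.47 kb they were 7.02 and 22.8 basal, 20.8 and 28.9 at 1 h, 15.7 and 87.6 at 6 h and 44.9 and 73.9 at 24 h. At -39.6 kb they were 7.49 and 5.37 basal, 0 and 9.64 at 1 h, 3.49 and 17.8 at 6 h, and 30.97 and 19.2 at 24 h. At -9.13 kb basal and 24 h libraries stood close together, with 16.9 and 20.1 against 20.7 and 18.2 tags. limma gave intron 1 log2 differences of 2.16 ± 0.91, 3.45 ± 0.91 and 3.31 ± 0.91 at 1, 6 and 24 h (adjusted p = 0.841, 0.661 and 0.788). No region of the locus was called at any time, against 0%, 0% and 0% of all 30675 regions at 1, 6 and 24 h, and 1, 1 and 2 of the 6 had an unadjusted p under 0.05. edgeR called 0 at each time and DESeq2 called 1, the intron 1 region at 6 h (3.73, adjusted p = 0.0191), which was also called at 6 h with the replicate block (3.45, adjusted p = 0.0372).

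The loss of Egr2 was compared at 3 regions of the locus, in intron 1 and at -17.47 kb and -39.6 kb. These tables list regions around peaks of EGR2 that were gained in C57 after 24 h of IL-4, so EGR2 binding chose them. H3K27ac at the intron 1 region was 2.56 and 2.72 tags basal and 115 and 85.4 at 24 h in Egr2 fl/fl cells, and 1.00 and 1.12 basal and 67.5 and 59.8 at 24 h in LyzM-Cre Egr2 fl/fl cells. IL-4 raised it in both genotypes, by 4.78 ± 0.39 (limma adjusted p = 5.51e-07) and 4.97 ± 0.39 (adjusted p = 2.09e-07) on the log2 scale. Both LyzM-Cre libraries at 24 h lay below both Egr2 fl/fl libraries, with a log2 difference of -0.63 ± 0.39 that did not pass (adjusted p = 0.261), and the IL-4 response did not pass a test of the difference between genotypes (interaction 0.19 ± 0.55, adjusted p = 0.930).

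At -17.47 kb H3K27ac was 219 and 204 tags at 24 h in Egr2 fl/fl cells and 95.6 and 94.0 in LyzM-Cre Egr2 fl/fl cells, from 43.5 and 25.1 and from 28.1 and 18.5 basal. The 24 h level was lower in the cells without Egr2 by -1.15 ± 0.29 (limma adjusted p = 0.00876). Over all 4677 regions the median genotype difference at 24 h was -0.50, and the call was lost under the scalings that remove such a shift, at -0.61 with median ratios (adjusted p = 0.142), -0.65 with edgeR (0.0718) and -0.62 with DESeq2 (0.171). Because EGR2 binding chose these regions, such scalings also remove any change that most of them share. A call lost or a sign turned under them, here and for the factors below, cannot tell a shared change from a difference of scale. The call at -17.47 kb was also lost without Egr2 fl/fl 24 h replicate 1 (0.0827) or 2 (0.0605). The share of all regions called lower in this comparison was 23.2%, beside 1 of 3 in the locus, and the interaction called 0 of 3 (0 with an unadjusted p under 0.05, 0 with edgeR and 0 with DESeq2) against 0%. At -39.6 kb the 24 h libraries held 43.2 and 46.9 tags in Egr2 fl/fl and 34.3 and 22.6 in LyzM-Cre Egr2 fl/fl cells (-0.67 ± 0.40, adjusted p = 0.238). The rise with IL-4 passed at 3 of 3 regions in each genotype, against 25.6% and 14.4% of all regions.

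Factor binding at the intron 1 region rose with IL-4 in both genotypes. STAT6 was 1.03 and 0 tags basal and 28.6 and 22.1 at 24 h in Egr2 fl/fl cells, and 1.11 and 0 basal and 20.6 and 11.3 at 24 h in LyzM-Cre Egr2 fl/fl cells. Its log2 rises were 4.20 ± 0.74 (limma adjusted p = 0.000676) and 3.49 (adjusted p = 0.0170), and the genotypes at 24 h differed by -0.69 ± 0.74 (adjusted p = 0.62), a sign that turned to 0.05, 0.10 and 0.07 with median ratios, edgeR and DESeq2. PU.1 rose from 5.95 and 5.74 to 28.3 and 18.5 tags (1.80 ± 0.41, adjusted p = 0.0146) and from 5.78 and 3.25 to 33.4 and 24.2 (2.46 ± 0.41, adjusted p = 0.00238). At -17.47 kb the IL-4 change in STAT6 passed in Egr2 fl/fl cells (2.71, adjusted p = 0.0295) and not in LyzM-Cre cells (1.06, adjusted p = 0.775), but the interaction did not pass at any of the 3 regions for STAT6, and the first call was lost under median ratios (0.462) and edgeR (0.351) and without any 1 of its 4 libraries (0.0673 to 0.245). The PU.1 call in Egr2 fl/fl intron 1 was lost without any 1 of its 4 libraries (adjusted p = 0.0944 to 0.247), and the STAT6 call there without 24 h replicate 1 (0.0882). In LyzM-Cre cells the STAT6 call in intron 1 was lost without 24 h replicate 1 (0.451), 24 h replicate 2 (0.0591) or basal replicate 2 (0.149), and the PU.1 call without 24 h replicate 1 (0.0818). STAT6 was called higher with IL-4 at 2 of 3 regions in Egr2 fl/fl (11.8% of all) and 1 of 3 in LyzM-Cre Egr2 fl/fl cells (1.20%), and PU.1 at 2 of 3 (8.19%) and 1 of 3 (2.80%). edgeR called 1 and 1 for STAT6 and 2 and 1 for PU.1. DESeq2 called 0 and 1 for PU.1, with 1.72 (adjusted p = 0.0976) in Egr2 fl/fl intron 1, and gave no adjusted p at any of the 3 regions for STAT6.

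PPARγ at the intron 1 region was 0 in both basal Egr2 fl/fl libraries and 58.4 and 66.2 tags at 24 h. Over a floor of 3 reads for the basal libraries together the pooled fold was 42.7, a value that leaves out the spread between replicates. In LyzM-Cre Egr2 fl/fl cells PPARγ there was 8.52 and 0 tags basal and 41.0 and 40.1 at 24 h. At -17.47 kb PPARγ at 24 h was 17.4 and 23.6 tags in Egr2 fl/fl cells and 0.70 and 3.88 in LyzM-Cre Egr2 fl/fl cells. That log2 difference was -2.89, beside a median genotype difference of -1.28 over all 4677 regions. Between genotypes at 24 h limma called 0 of 3 regions, and 0 of all regions, with 1 of the 3 at an unadjusted p under 0.05. The 2 PPARγ libraries at 24 h correlated at 0.597 in Egr2 fl/fl and 0.486 in LyzM-Cre Egr2 fl/fl cells. The 2 basal ones correlated at 0.334 and 0.488 in the same order. limma called 0 of 3 regions with IL-4 in Egr2 fl/fl cells (0% of all), where 1 had an unadjusted p under 0.05 and edgeR and DESeq2 called 0, and the intron 1 difference had an adjusted p of 0.0797 (0.0189 with a filter on low values). The genotypes at 24 h in intron 1 differed by -0.60 (adjusted p = 0.816), which turned to 0.40, 0.21 and 0.41 under median ratios, edgeR and DESeq2. C/EBPβ tags there were 1.30 and 3.27 basal and 9.07 and 19.5 at 24 h in Egr2 fl/fl cells, and 1.45 and 0 basal and 6.78 and 7.51 at 24 h in LyzM-Cre cells, and limma called 0 of 3 regions in Egr2 fl/fl (2.10% of all), with 1 at an unadjusted p under 0.05 and 0 by edgeR or DESeq2. H3K4me2 in intron 1 went from 15.3 and 10.7 to 37.6 and 44.6 tags (1.60 ± 0.37, adjusted p = 0.00109, lost without basal replicate 2 at 0.0628) and from 11.3 and 14.01 to 49.1 and 43.9 (1.80 ± 0.37, adjusted p = 0.000473). It was called at 1 of 3 regions in each genotype, against 8.06% and 1.13% of all regions. Pol II, with 1 library per group, was 5.84 basal and 130 at 24 h in Egr2 fl/fl and 5.20 and 95.8 in LyzM-Cre Egr2 fl/fl cells, and was not tested.

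**Figure D4:**
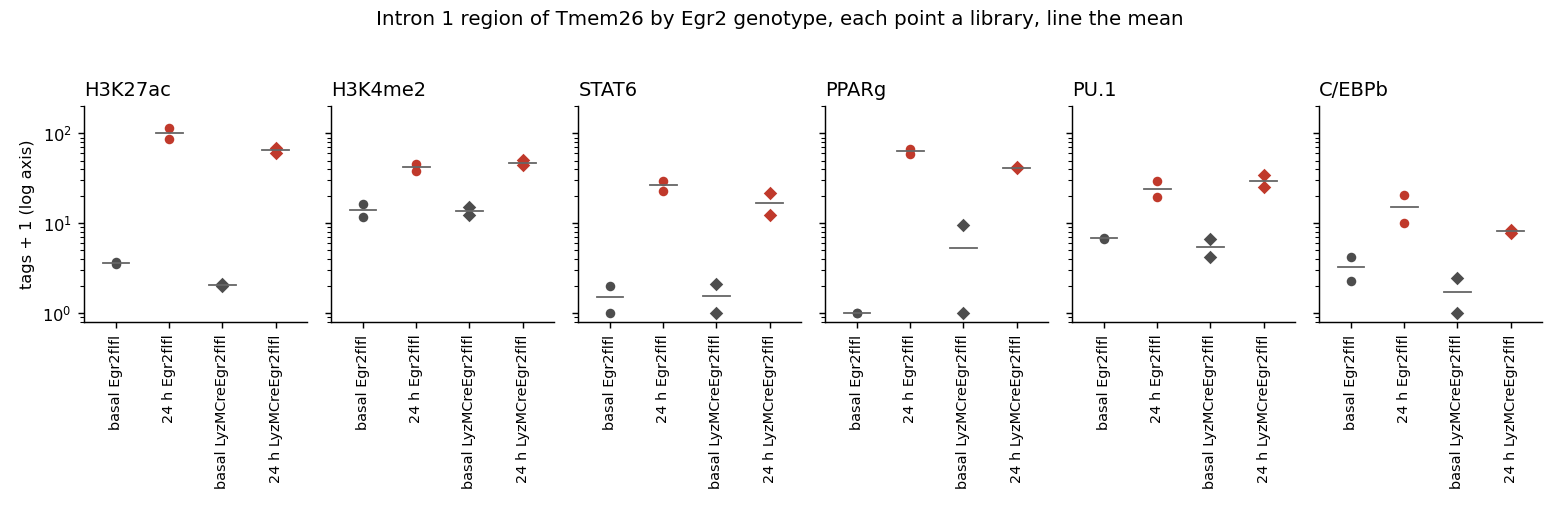
Tags at the intron 1 region of Tmem26 by Egr2 genotype and IL-4, for 2 histone marks and 4 factors. The y axis is normalised tags plus 1 on a log axis, each point is a library (circles Egr2 fl/fl, diamonds LyzM-Cre Egr2 fl/fl, grey basal, red 24 h) and lines are group means. In every panel the 24 h libraries of a genotype lie above its basal libraries, H3K27ac at 67.5 and 59.8 tags without Egr2 against 115 and 85.4 with it.

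Neighbouring and related genes were read in the same tables. Of the 4 protein-coding genes whose starts lie within 500 kb of that of Tmem26 (Arid5b, Cabcoco1, Rhobtb1 and A930033H14Rik), 3 had a start region in at least 1 strain table and Rhobtb1 had none. No such region was called in H3K27ac or Pol II in any tested strain, by limma, edgeR or DESeq2, and of the 2 regions in each strain 1 had an unadjusted limma p under 0.05 in H3K27ac in BALB, C57 and SPRET and in Pol II in BALB. In BALB the Cabcoco1 start held 16.5 ± 4.76 tags basal and 41.8 ± 26.1 at 24 h (SD, n = 2), a log2 difference of 1.17 ± 0.57 (limma adjusted p = 0.382). The A930033H14Rik start in C57 went the other way, from 75.0 ± 51.3 to 22.9 ± 3.61 tags of H3K27ac, a log2 difference of -1.49 ± 0.59 (limma adjusted p = 0.210). Of 20 genes listed for their known response to IL-4, 12 to 14 had a start region in each strain. By limma H3K27ac rose at 2 of 12 in BALB (Cish and Slc7a2) against 1.60% of all regions, 2 of 12 in PWK (Mgl2 and Cish) against 0.487%, 6 of 14 in SPRET against 0.994% and 0 of 12 in C57 against 0%, and fell at none, with median log2 differences of 1.29, 1.25, 1.36 and 1.66. In the same order edgeR called 6, 0, 6 and 1 and DESeq2 6, 3, 6 and 6, with no adjusted p for 2 BALB genes and 1 PWK gene, and 7 of the C57 genes had an unadjusted limma p under 0.05. In SPRET the 6 were Mgl2, Socs1, Cish, Pdcd1lg2, Slc7a2 and Irf4, with rises from 1.66 to 3.72 on the log2 scale. Cish, a feedback inhibitor of cytokine signalling that STAT factors induce, went in SPRET from a mean of 5.79 to 65.6 tags (3.51, adjusted p = 0.0141).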

How the data were processed

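Histone mark, Pol II and transcription factor ChIP-seq of BMDMs was analysed. Tag values came from 155 of the 267 samples, and the 54 peak lists also pool libraries that the tag values do not cover. Per the methods and the submitters' processing notes, reads were mapped by the authors with Bowtie2, for each strain against its own genome, positions were then moved to mm10 and HOMER counted the tags. The deposited signal values are normalised tags scaled to a library of 1e7 tags, around ATAC-seq peaks (histone marks, Pol II) or factor peaks, for separate libraries. The deposited peak lists, 1 per group, hold peaks reproducible between replicates, per the methods by IDR, with 1 score per peak. It is an IDR score, or a plain score for PPARγ and for EGR2 outside C57. Multiplying each value by its library total gave whole reads, to within a tolerance set per library at 0.0123 to 0.0245 reads, in 100.0% of values at the lowest, and edgeR and DESeq2 used those reads. There were 4 tag columns that matched no sample, and they were not used.

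log2(tags + 1) values of each whole table were fitted with limma 3.58.1 in R 4.3.3, with p-values adjusted by Benjamini-Hochberg over all regions of the table and a threshold of 0.05, without the replicate number. Alternatives were a pseudocount of 5, a filter on low values, median-ratio scaling, edgeR 4.0.16 with TMM, DESeq2 1.42.0, the replicate number as a block, 2 groups alone and leaving out each library. The methods call replicates biological; p-values measure the spread between these samples. In Pol II, with 3 pairs, same-numbered libraries deviated together, with correlations of 0.144 to 0.48 in C57, 0.438 to 0.631 in PWK and 0.414 to 0.442 in SPRET, which was taken to pair them. Other sets had 2 pairs, whose deviations from their mean mirror each other, and they were not taken as paired. Their correlations ran from -0.063 (EGR2 at 6 h) to 0.732 (C57 H3K4me3). In H3K27ac at 24 h they were 0.653 in BALB, 0.729 in C57, 0.692 in PWK and 0.507 in SPRET. Those of BALB, C57 and PWK lay above every Pol II value taken as pairing, so H3K27ac libraries may be paired too. The limma values given are from the fit without the block unless stated, also for Pol II. Calls missed or lost in that fit can therefore differ where libraries are paired. Replicates differed by more than counting noise, the lowest chi-square per degree of freedom being 1.41.

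The regions named were the NOD region with the largest H3K27ac rise on the log2(tags + 1) scale and its counterparts, the start, the 3 next highest in H3K27ac and every EGR2 and Egr2 genotype region. A peak was placed at a position when its centre lay within 500 bp of the centre of the C57 region there, and no peak counted both at the start and at -0.46 kb. The locus, the gene lists and the motifs were chosen with earlier results of these data known. Sequences were read from the GRCm38.p6 genome of RefSeq. Scripts used Python 3.11.15, pandas 2.3.3, numpy 2.4.6, scipy 1.17.1 and matplotlib 3.10.9 and were tested on simulated data.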

Additional observations from a re-analysis of the deposited data

Results flagged for a closer look

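Among the 18 groups of 4 or more libraries that could be tested, the Pol II level of C57 basal cells at the intron 1 region was flagged because 1 library stood apart from the other 3. Basal replicate 1 held 13.73 tags against 0, 0.80 and 1.01 in replicates 3, 2 and 4, a gap of 0.926 of the whole range. The same libraries were flagged at the matching region of the time course table, also at 13.73 tags, so the 2 flags are 1 observation. By this rule chance flags about 1 group in 20. Without that library the Pol II rise at the intron 1 region was 6.34 on the log2 scale (limma adjusted p = 0.000114), against 5.53 with it. At the start of the gene the same library was also the highest basal one, at 51.8 tags against 22.5, 3.75 and 5.06.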

How the results depend on the processing

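Leaving out 1 library at a time gave log2 changes at the intron 1 region of 3.96 to 5.40 (H3K27ac) and 5.04 to 6.34 (Pol II) in C57, 5.27 to 6.21 and 5.59 to 5.90 in PWK and 2.29 to 4.15 and 3.81 to 4.44 in SPRET, and at -0.46 kb of 3.26 to 5.02 and 3.83 to 4.49 in BALB. In the time course they were 1.63 to 4.17, 4.82 to 6.26 and 3.98 to 5.42 for H3K27ac at 1, 6 and 24 h, 5.34 to 6.64, 5.84 to 7.14 and 5.04 to 6.35 for Pol II, and 1.06 to 3.27, 2.75 to 4.14 and 2.74 to 3.88 for EGR2. For H3K27ac by genotype they were -0.84 to -0.42 at 24 h, 4.57 to 4.99 and 4.88 to 5.06 for IL-4 in Egr2 fl/fl and LyzM-Cre Egr2 fl/fl cells, and -0.02 to 0.40 for the interaction, which turned negative without Egr2 fl/fl 24 h replicate 2 (-0.02) and with a pseudocount of 5 (-0.27).

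With the replicate number as a block, calls changed for BALB Pol II at -0.46 kb (4.14, adjusted p = 0.0818), C57 H3K27ac at intron 1 (4.68, adjusted p = 1.28e-09) and EGR2 at 6 h (3.45, adjusted p = 0.0372). The block called 4 of 6 BALB, 6 of 8 C57 and 8 of 10 PWK regions in H3K27ac, against 2, 0 and 3 without it. In H3K4me2 it called 1 of 8 C57 regions lower (+35.7 kb) and, of 5 in SPRET, 1 higher (intron 1) and 1 lower (the start). Other changed calls were C57 H3K27ac with edgeR (5.39) and DESeq2 (5.48), SPRET H3K27ac with median ratios (3.29), time course H3K27ac at 1 h with a pseudocount of 5 (1.90) and with 2 groups (2.90), at 24 h with 2 groups (4.70), Pol II at 1 h with a pseudocount of 5 (4.38), a filter (5.82), DESeq2 (5.61) and 2 groups (5.82), and EGR2 at 6 h with DESeq2 (3.73) and at 24 h with 2 groups (3.31). The cause was not tested. Signs turned with median ratios, edgeR and DESeq2 for C57 H3K4me2 at the start (0.11, 0.09, 0.10) and, by genotype at 24 h in intron 1, for STAT6 (0.05, 0.10, 0.07) and PPARγ (0.40, 0.21, 0.41), and with median ratios and edgeR for C/EBPβ (0.16, 0.03). At the genotype regions, which EGR2 binding chose, these scalings also remove any change that most regions share. Kept to the upper part of each list in its order, 3 lists at 24 h held a peak at the start in place of 10. Windows of 25 and 100 kb held 46 and 64 regions in place of 61 and 191 and 273 peaks in place of 244, while counts of single peak lists moved by more. Over the other regions tested, leaving out 1 library kept the side of the threshold for 224 values, lost the call for 122 and gained it for 7, with no sign turned.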

Other observations

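Among the 24030 regions of the C57 time course outside the locus that passed the fold rule at any time, the 5 genes whose regions ran most like the intron 1 region in H3K27ac were Ccn6, Ier3, Gm8113, F7 and Mreg, each region being named by its nearest gene start. Pearson's r of log2(tags + 1) over the 8 libraries was 0.992, 0.990, 0.990, 0.989 and 0.988. The 8 points are the same libraries for every region, so differences between those libraries are shared, and r is a description. The Mreg region, which lies far from the gene's own start, was the one nearest in basal level, with means of 1.06 tags basal, 10.8 at 1 h, 32.1 at 6 h and 26.2 at 24 h. The region near Ier3, an immediate early gene, held 24.3, 92.0, 237 and 173 tags at the same times.

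At -39.6 kb the 24 h H3K27ac of the Egr2 fl/fl libraries, 43.2 and 46.9 tags, stood beside 45.8 and 34.8 in C57, although the tables were made separately. At -2.47 kb only the PWK table had a region, where Pol II rose by 3.25 ± 0.57 on the log2 scale (limma adjusted p = 0.0107), a call lost without 24 h replicate 2 or 3 or basal replicate 2 (adjusted p = 0.105, 0.0841 and 0.101).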
